A study of Saccharomyces cerevisiae with 6 samples.

Results

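The genes described are 37 nuclear genes of *Saccharomyces cerevisiae* that encode the mitochondrial NADH dehydrogenases, complex III, cytochrome c, complex IV and the ATP synthase. They were chosen by name, from what their proteins do, and make up 37 of the 5913 genes in the table. RNA was sequenced from haploid *MATa* cells of the BY4741 background (*his3Δ1 leu2Δ0 met15Δ0 ura3Δ0*) in which the chromosomal *NOT4* gene was deleted with a *KANMX* cassette. Not4 is the E3 ubiquitin ligase subunit of the Ccr4-Not complex. Cells of both groups carried a centromeric *URA3* plasmid, p416*ADH*, with FLAG-tagged *NOT4* under the *ADH1* promoter and a *CYC1* terminator, so that neither group expressed *NOT4* from its own promoter. The insert was wild-type *NOT4* in Not4WT cells and, in Not4RRM cells, *NOT4* in which conserved residues of the RNA recognition motif and the adjoining C3H1 zinc finger were replaced by alanine. Both were grown in glucose medium lacking uracil, in 3 cultures each, and the comparison asks which transcripts differ between the 2 groups.

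In mitochondria of this yeast, electrons from NADH enter the chain through single-subunit dehydrogenases, since the organism has no complex I. They pass by way of ubiquinone to complex III, cytochrome c and complex IV, and the proton gradient that results drives the ATP synthase. Glucose represses most of these genes, and the Hap2/3/4/5 factor, which binds CCAAT, and the heme-responsive factor Hap1 activate them. Oxygen and heme also select between alternative subunits, of which *COX5A* and *CYC1* are the aerobic and *COX5B* and *CYC7* the hypoxic forms.

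The CCAAT letters were searched for because that factor activates many genes of respiration. The pentamer, or its reverse complement ATTGG, whose bases can overlap, occurred in the 400 bases that end 100 bases before the start codon in 33 of the 37 genes (89.2%), against 3315 of all 6000 nuclear coding genes (55.2%) in windows of the same length. It was found for 14 of 14 ATP synthase genes, 8 of 9 of complex III, 8 of 9 of complex IV, 2 of 3 NADH dehydrogenases and 1 of 2 cytochromes c, and its letters were not in the windows of *NDE2*, *CYT1*, *CYC1* and *COX4*. Windows of this size can reach into a neighbouring gene. The longer consensus motif of Hap1, which shares no CCAAT, was found on either strand for *QCR6* alone among the 37 (2.7%), against 20 of the 6000 (0.333%). To show what was matched, a match is printed for each gene of the isoform pairs, of chromosome VIII, of non-overlapping groups and of the highest levels that has CCAAT on its coding strand. Where such a gene has several, the match nearest to the start codon is given, and other matches, ATTGG included, are not printed. The pentamer is in capitals, and the letters are read 5′ to 3′ on the coding strand from the RefSeq R64 assembly.
COX5A, chrXIV:531537-531577, plus strand: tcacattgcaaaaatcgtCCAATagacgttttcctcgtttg
COX5B, chrIX:154957-154997, plus strand: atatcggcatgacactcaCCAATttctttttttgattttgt
CYC7, chrV:80408-80448, minus strand: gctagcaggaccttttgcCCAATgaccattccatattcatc
COX6, chrVIII:209401-209441, plus strand: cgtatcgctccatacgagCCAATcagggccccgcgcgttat
QCR10, chrVIII:107609-107649, plus strand: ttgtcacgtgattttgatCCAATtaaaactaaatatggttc
COX13, chrVII:144578-144618, plus strand: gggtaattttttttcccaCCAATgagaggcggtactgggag
ATP1, chrII:36565-36605, plus strand: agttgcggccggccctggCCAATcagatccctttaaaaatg
ATP2, chrX:647404-647444, plus strand: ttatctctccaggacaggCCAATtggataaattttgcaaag
ATP15, chrXVI:29928-29968, plus strand: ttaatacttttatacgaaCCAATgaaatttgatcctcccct
A match marks letters only and says nothing of whether the factor was bound.

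Each sample of the table totals between 14881818 and 14881884, since every sample was scaled to the lowest coverage, and the depth before scaling is unknown. Values below are normalised read counts, that is, the table's values after TMM scaling, and fold changes are of Not4RRM over Not4WT on the log2(value + 1) scale. Replicates of Not4WT correlated across genes with Pearson's r of 0.806 to 0.946, and those of Not4RRM with 0.884 to 0.992. *NOT4* itself (listed as *MOT2*) ranged from 8880 to 12055 in Not4WT and from 34309 to 43404 in Not4RRM samples, a log2 fold change of 1.87 (SE 0.23, limma adjusted p = 0.072). *URA3*, which sits on the same plasmid, ranged from 1007 to 1173 and from 4296 to 9511. The groups thus differed in the level of *NOT4* as well as in its sequence, and the 2 cannot be told apart by this design. The a-specific *STE2*, the receptor for alpha-factor, was between 5365 and 12721 in all samples. *STE3*, the receptor of the other mating type, was between 68.3 and 118. Of the other a-specific genes, *STE6* was between 1376 and 1655, *BAR1* between 2584 and 6533 and *MFA2* between 446 and 2375. *MFA1* ran from 628 to 12614 and *AGA2* from 343 to 5510, both highest in Not4RRM replicate 1. Of the other alpha-specific genes, *SAG1* was between 224 and 329, *MF(ALPHA)2* between 30.5 and 186 and *MF(ALPHA)1* between 2.88 and 13.9. *LEU2* was between 11.1 and 19.5 and *MET15* between 15.1 and 26.7, but *HIS3* was between 867 and 2592. In 275 tested genes of chromosome VIII, which holds *COX6* and *QCR10*, the median log2 fold change was 0.65, and 268 were higher in Not4RRM, against a median of 0.03 for the 5530 tested genes elsewhere.

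All 37 genes passed the filter on low values, and none (0 of 37) met the threshold of 1.5-fold with an adjusted p under 0.05, where 0 of 5805 genes tested did (0%). At an unadjusted p under 0.05 in limma, 926 of the 5805 genes differed. Of the 37, *QCR8* was higher by that measure, where 9.84% of tested genes were, and *CYT1* was lower, where 6.12% were. The lowest adjusted p among the 37 was 0.234. When the steps of the study's methods were followed (an unequal-variance test per gene, an unadjusted p under 0.05 and at least 1.5-fold, with adjustment within the resulting list), 6.0% of the 5913 genes were listed and 0 of the 37. The median log2 fold change was 0.10 over the 37 genes and 0.05 over all genes tested, and 22 of the 37 (59.5%) lay above 0, where 54.8% of tested genes did. With samples scaled to equal totals only, these medians were -0.024 and -0.075, and 18 of the 37 lay above 0. The median of the 37 was also under 0 without Not4RRM replicate 1 (-0.038) and without Not4WT replicate 2 (-0.021). Since the RNA came from whole cultures, fewer cells that express a gene and less RNA per cell cannot be told apart.

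The complexes differed in the sign of their members. All 3 NADH dehydrogenases had a negative log2 fold change, with a median of -0.32. Of the 9 genes of complex III, 4 were above 0 and 5 below (median -0.01), and both cytochromes c were below (median -0.36). Complex IV had 7 above and 2 below (median 0.15), and the ATP synthase 11 above and 3 below (median 0.26). The values for complex III, complex IV and the ATP synthase depended on single libraries and on the trend with coding length described further on. For complex III the median was 0.037 with 6 of 9 above 0 without Not4WT replicate 2, and -0.18 with 3 of 9 once the length trend was removed. The NADH dehydrogenases and cytochromes c all stayed below 0 in these settings, with medians of -0.28 and -0.79 once the length trend was removed. For complex IV the median was -0.054 with 4 of 9 above 0 without Not4WT replicate 2, 0.27 with 6 of 9 without Not4RRM replicate 1, 0.023 with 6 of 9 at equal totals and -0.24 with 3 of 9 once the length trend was removed. For the ATP synthase it was 0.078 without Not4WT replicate 2 and 0.043 without Not4RRM replicate 1, with 8 of 14 above 0 in each, and -0.086 with 5 of 14 once the length trend was removed. None of these differences between complexes was tested.

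**Figure D1:**
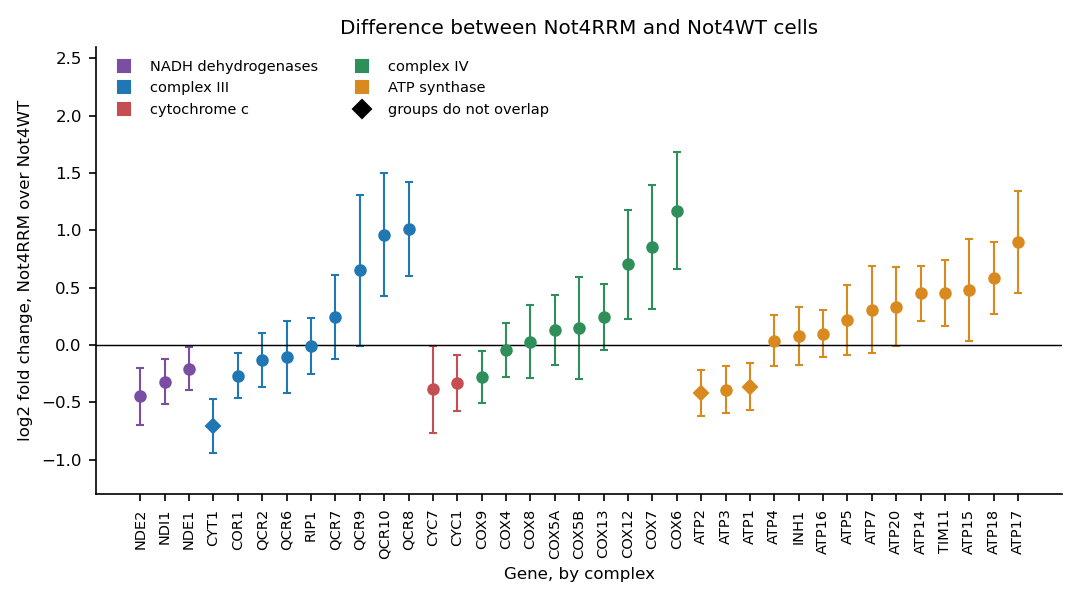
The log2 fold change of Not4RRM over Not4WT (vertical axis) is drawn for each gene, grouped and coloured by complex, with bars of 1 SE from limma (n = 3 samples a group). Diamonds mark CYT1, ATP1 and ATP2, whose 3 Not4RRM values all lay below the 3 Not4WT values; no gene passed the adjusted threshold.

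In 3 of the 37 genes (8.11%) every Not4RRM sample was lower than every Not4WT sample, where 12.2% of tested genes were, and in 0 of 37 every Not4RRM sample was higher, where 12.3% were. These 3 were *CYT1*, *ATP1* and *ATP2*. *CYT1* (YOR065W, chromosome XV, 447439 to 448368, plus strand) encodes cytochrome c1, the heme subunit of complex III that hands electrons to cytochrome c. Its normalised read counts were 4148, 6320 and 4371 in the Not4WT samples and 2446, 3423 and 3140 in the Not4RRM samples. The highest Not4RRM value thus lay under the lowest Not4WT value, and the log2 fold change was -0.71 (SE 0.24, limma adjusted p = 0.234; exact permutation p = 0.1, two-sided, the smallest that 3 against 3 allow). Without Not4RRM replicate 1, the lowest of the 6 samples, it was -0.57 (limma adjusted p = 0.132). With both that sample and Not4WT replicate 2, the highest, left out, it was -0.38 (limma adjusted p = 0.115).

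*ATP1* (YBL099W, chromosome II, 37053 to 38690, plus strand) and *ATP2* (YJR121W, chromosome X, 647607 to 649142, plus strand) encode the alpha and beta subunits, which form the catalytic head of the ATP synthase. *ATP1* was at 12741, 17285 and 12964 in Not4WT and at 10763, 11204 and 11126 in Not4RRM samples. *ATP2* was at 5634, 7224 and 5094 in Not4WT and at 4941, 4245 and 4139 in Not4RRM samples. For both genes Not4WT replicate 2 stood above the other samples, and the gap between the groups was small beside that sample's distance from the rest. The log2 fold change was -0.36 for *ATP1* (SE 0.21, limma adjusted p = 0.417) and -0.42 for *ATP2* (SE 0.20, limma adjusted p = 0.353), each with an exact permutation p of 0.1. *ATP3*, the gamma subunit that rotates within the head, had a log2 fold change of -0.39 (limma adjusted p = 0.378), and its groups overlapped, since Not4RRM replicate 1 at 6109 exceeded Not4WT replicate 3 at 6013.

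*ATP16*, the delta subunit, was between 1177 and 1301 in Not4WT and between 1142 and 1750 in Not4RRM samples, a log2 fold change of 0.10. Without Not4RRM replicate 1 it was -0.098, and with the length trend removed -0.28, beside -0.31 for *ATP1*. *ATP15*, the small epsilon subunit of the stalk (YPL271W, chromosome XVI, 30079 to 30267, plus strand), was at 35662, 17756 and 52251 in Not4WT and at 29671, 49907 and 60813 in Not4RRM samples. Its samples spread within each group by more than the groups differed (log2 fold change 0.48, SE 0.45, limma adjusted p = 0.597). *ATP15* alone made up 17.7% to 37.6% of the normalised counts of the 37 genes in the Not4WT samples and 27.8% to 44.9% in the Not4RRM samples.

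The peripheral stalk and membrane part of the ATP synthase includes *ATP4*, *ATP5*, *ATP7* and *ATP14* of the stator, *ATP17*, *ATP18* and *ATP20* of the membrane part, and *TIM11*, needed for dimers of the enzyme. Their log2 fold changes ran from 0.04 for *ATP4* to 0.90 for *ATP17*, and all 8 were above 0 with overlapping groups. In *ATP5* and *ATP7* a single sample carried the difference. *ATP7* was at 1985, 2316 and 1639 in Not4WT and at 4628, 1767 and 1750 in Not4RRM samples, so that Not4RRM replicate 1 was the highest sample and the other Not4RRM samples lay within the Not4WT range. Without that sample the log2 fold change went from 0.31 to -0.16 for *ATP7* and from 0.22 to -0.13 for *ATP5*. *INH1*, the inhibitor that stops the enzyme from hydrolysing ATP, had a log2 fold change of 0.08 (limma adjusted p = 0.89).

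Among complex III genes, those of the large core subunits, *COR1* and *QCR2*, had log2 fold changes of -0.27 and -0.13, and *RIP1*, the Rieske iron-sulfur protein, of -0.01. The small accessory subunits differed from each other more widely, from -0.10 for *QCR6*, through 0.25 for *QCR7* and 0.65 for *QCR9*, to 1.01 for *QCR8*. *QCR8* (YJL166W, chromosome X, 106434 to 106718, plus strand), a small subunit that lies close to cytochrome b, was at 101.0, 53.5 and 172 in Not4WT and at 234, 229 and 145 in Not4RRM samples. Its groups overlapped, because Not4RRM replicate 3 lay below Not4WT replicate 3 (SE 0.41, limma adjusted p = 0.296). Without Not4WT replicate 2, the lowest sample for both genes, the log2 fold change was 0.58 for *QCR8* and 0.085 for *QCR9*.

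*COX6* and *QCR10* are the members on chromosome VIII. *COX6* (YHR051W, 209705 to 210151, plus strand), a nuclear-encoded subunit of complex IV, was at 1466, 897 and 2678 in Not4WT and at 1753, 4328 and 5332 in Not4RRM samples. Its level was higher in Not4RRM replicates 2 and 3 than in any Not4WT sample, while Not4RRM replicate 1 lay within the Not4WT range. The log2 fold change was 1.17 (SE 0.51, limma adjusted p = 0.315), and 0.56 once the median of its chromosome had been subtracted. *QCR10* (YHR001W-A, 107826 to 108122, plus strand, with an intron), a small subunit of complex III, was at 327, 131 and 387 in Not4WT and at 239, 745 and 697 in Not4RRM samples. The same sample was again within the Not4WT range, and the log2 fold change was 0.96 (SE 0.54, limma adjusted p = 0.404), or 0.35 with the chromosome's median subtracted. With Not4WT replicate 2 and Not4RRM replicate 1 both left out, limma called 8.83% of 5784 genes and 3 of the 37 (8.11%), *COX6* and *QCR10* as higher (log2 fold changes 1.28 and 1.02, adjusted p = 0.0309 and 0.0127) and *CYC1* as lower (-0.59, adjusted p = 0.0413). This setting was chosen after the values were seen, and its calls were made without subtracting the chromosome's median. In it the tested genes of chromosome VIII had a median log2 fold change of 0.795, with 268 above 0. With all 6 samples kept, the median deviation of these genes from their Not4WT mean was 0.37 in Not4RRM replicate 1. In Not4RRM replicates 2 and 3 that deviation was 0.80 and 0.79. The part of chromosome VIII as a whole in the result for *COX6* and *QCR10* was not tested beyond that subtraction.

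Cytochrome c, the mobile carrier between complexes III and IV, is encoded by *CYC1* and *CYC7*. *CYC1* (YJR048W, chromosome X, 526335 to 526664, plus strand) was at 2832, 2606 and 2466 in Not4WT and at 2974, 1660 and 1851 in Not4RRM samples. Not4RRM replicates 2 and 3 were below every Not4WT sample and Not4RRM replicate 1 was above them all (log2 fold change -0.33, SE 0.24, limma adjusted p = 0.506). Without Not4RRM replicate 1, limma called 6.18% of 5793 genes and 1 of the 37 (2.7%), which was *CYC1* (log2 fold change -0.59, adjusted p = 0.0421). The plasmid of both groups ends its *NOT4* insert with the *CYC1* terminator, and *NOT4* was at 34309 in Not4RRM replicate 1, where *CYC1* was highest, and at 41517 and 43404 in Not4RRM replicates 2 and 3, where *CYC1* was lowest. In Not4WT replicates 1 to 3 *NOT4* was at 11883, 12055 and 8880, beside *CYC1* at 2832, 2606 and 2466. Any part of the plasmid in the *CYC1* values was not tested. *CYC7* (YEL039C, chromosome V, 79636 to 79977, minus strand) was at 17.3, 12.0 and 23.8 in Not4WT and at 14.4, 12.3 and 11.8 in Not4RRM samples, a log2 fold change of -0.39 at values near the filter's minimum of 10 (limma adjusted p = 0.615).

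Per kilobase of coding sequence, the level of *CYC7* was between 0.00444 and 0.0093 of that of *CYC1* in the 6 samples. The coding sequences were identical at 78.1% of their 329 aligned bases. Their longest shared run, of 35 bases, is shown because a read that lies wholly within it could not be assigned to either gene by sequence alone; in *CYC1* it lies at chrX:526560-526594, plus strand, in R64.
CYC1 and CYC7: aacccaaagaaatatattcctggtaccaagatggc
How such reads were counted is not given in the sources used here, so the low values of *CYC7* are uncertain.

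The pair *COX5A* and *COX5B* encodes alternative forms of subunit 5 of complex IV. *COX5A* (YNL052W, chromosome XIV, 531725 to 532186, plus strand) was at 292, 412 and 428 in Not4WT and at 641, 358 and 294 in Not4RRM samples. *COX5B* (YIL111W, chromosome IX, 155222 to 155765, plus strand, with an intron) was at 3805, 2290 and 7350 in Not4WT and at 2902, 5546 and 5396 in Not4RRM samples. Groups overlapped for both, with log2 fold changes of 0.13 (SE 0.31) and 0.15 (SE 0.44). The level per kilobase of *COX5B*, the hypoxic form, exceeded that of *COX5A*, the aerobic form, in every sample, by 13.2, 5.63 and 17.4 times in Not4WT and by 4.59, 15.7 and 18.6 times in Not4RRM samples. On the log2 scale the ratio was 3.44 ± 0.85 in Not4WT and 3.46 ± 1.10 in Not4RRM samples (SD, n = 3 each; exact permutation p = 1.0). The lowest ratios belonged to Not4WT replicate 2 and Not4RRM replicate 1. Coding sequences of the pair were identical at 69.3% of 446 aligned bases, with 12 bases in the longest shared run. By counts per kilobase, *COX5B* was thus the higher form of its pair while *CYC7*, likewise a hypoxic form, was among the genes of lowest level. *AAC3*, the hypoxic ADP/ATP carrier, which was picked after its values were seen, was also low, between 35.7 and 48.4 in all samples.

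*NDE1* and *NDE2* encode the external NADH dehydrogenases, which oxidise cytosolic NADH, and *NDI1* the internal enzyme that faces the matrix. *NDE1* (YMR145C, chromosome XIII, 554793 to 556475, minus strand) was at 3519, 4840 and 4304 in Not4WT and at 3731, 3653 and 3501 in Not4RRM samples. *NDE2* (YDL085W, chromosome IV, 303211 to 304848, plus strand) was at 102, 142 and 127 in Not4WT and at 65.8, 107 and 102 in Not4RRM samples. The groups of each gene overlapped, with log2 fold changes of -0.21 (SE 0.19) and -0.45 (SE 0.25). Their ratio per kilobase was steady in 5 samples, with *NDE2* at 0.0298 to 0.0303 of *NDE1*, and was 0.0181 in Not4RRM replicate 1 (exact permutation p = 0.5 between groups). *NDI1* ranged from 725 to 978 in Not4WT and from 578 to 802 in Not4RRM samples.

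The other genes of complex IV were *COX4*, *COX7*, *COX8*, *COX9*, *COX12* and *COX13*. *COX13* (YGL191W, chromosome VII, 144808 to 145197, plus strand) had the highest level per kilobase in the complex and was at 4709, 2475 and 4993 in Not4WT and at 4439, 4421 and 4926 in Not4RRM samples. Not4WT replicate 2 was the lowest, and the other 5 samples lay between 4421 and 4993 (log2 fold change 0.24, SE 0.29). The log2 fold changes of the rest ran from -0.28 for *COX9* to 0.86 for *COX7*, a gene at 16.6 to 93.7 in the 6 samples, and all of their groups overlapped.

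Levels per kilobase of coding sequence differed widely between subunits of 1 complex. The values of short genes relative to long ones differed between samples, as given further on, so comparisons between genes of unlike length are uncertain. In Not4WT cells the mean normalised count per kilobase ran from 51.7 for *CYC7* to 186400 for *ATP15*, which ranked 10 of 5801 genes. The ratio of the highest to the lowest was 257 in the ATP synthase, 38.2 in complex IV, 33.2 among the NADH dehydrogenases and 19.2 in complex III. *ATP1* and *ATP2*, whose proteins are present in equal number in the enzyme, were at 8749 and 3896 per kilobase in Not4WT and at 6734 and 2892 in Not4RRM cells.

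**Figure D2:**
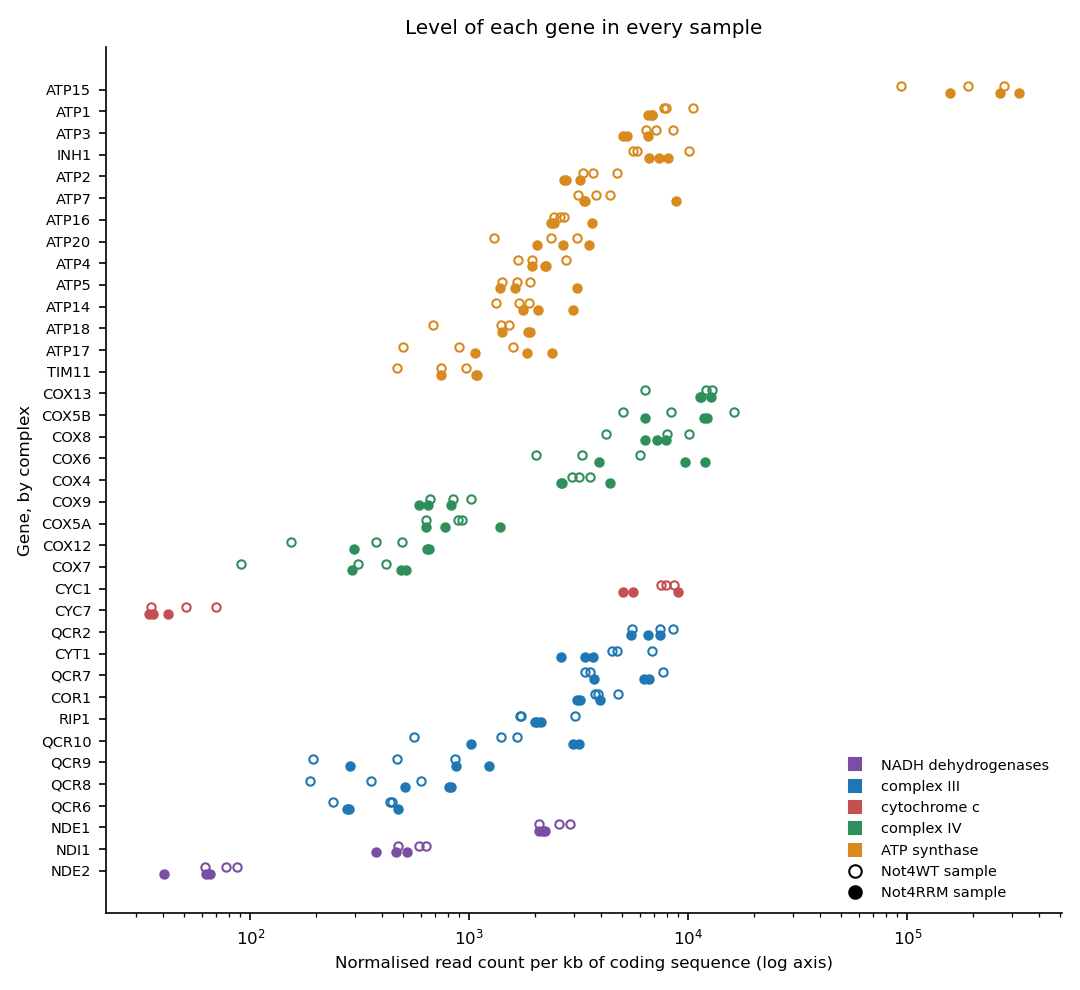
Each point is a sample's normalised read count per kilobase of coding sequence (horizontal log axis), with the genes ordered by level within each complex; open points are Not4WT and filled points Not4RRM samples. ATP15 lies far to the right of every other gene and CYC7 and NDE2 lie furthest to the left, and the points of the groups overlap for all but CYT1, ATP1 and ATP2.

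The fold changes of the 37 genes followed coding length. All 9 genes of at least 900 bp were below 0, with a median of -0.36. The 3889 tested genes of that length had a median of -0.05, and 2169 of them were below 0. The 10 genes of 400 bp to under 900 bp had a median of 0.11, with 7 above 0 (0.29 over all 1416 tested genes of that length), and without Not4RRM replicate 1 a median of -0.12 with 3 above 0. The 18 genes under 400 bp had a median of 0.45, with 15 above 0, where the 496 tested genes of that length had a median of 0.42 and 390 above 0. Spearman's rho between length and log2 fold change was -0.64 over the 37 genes and -0.41 over 5801 tested genes, all taken from the same 6 libraries. Removing the trend of log2 values with length in each sample left 11 of the 37 above 0 (29.7%), where 50.9% of all tested genes were, and moved their median to -0.18. Spearman's rho with length was then -0.38 over the 37 genes and 0.0 over the tested genes. The genes of at least 900 bp then had a median of -0.31, with 0 of 9 above 0. Those under 400 bp had a median of 0.02, with 10 of 18 above 0.

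**Figure D3:**
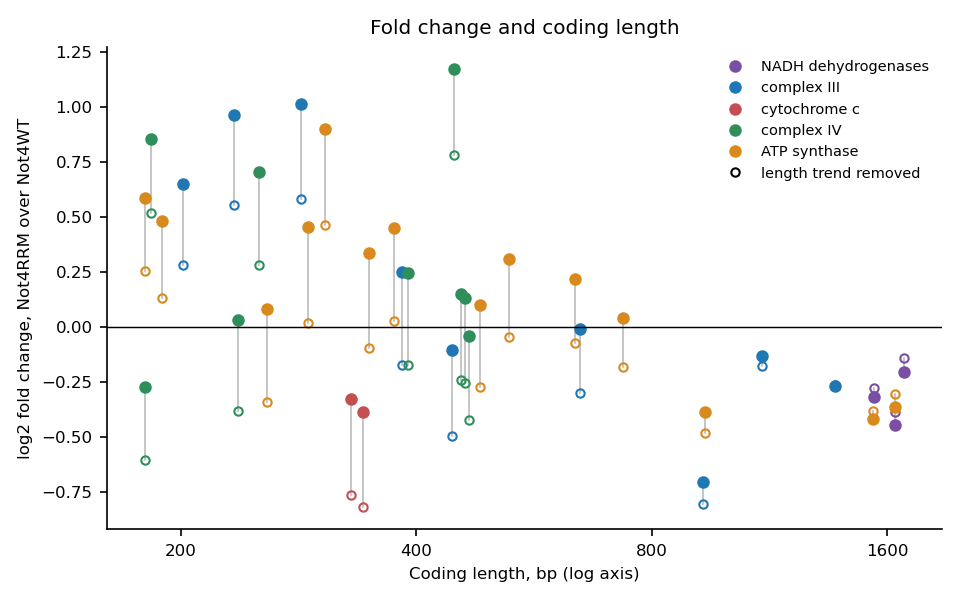
The log2 fold change of Not4RRM over Not4WT (vertical axis) is plotted against coding length in bp (horizontal log axis) for each of the 37 genes, coloured by complex. Filled points are the values as fitted, open points those after the length trend of all genes was removed, and grey lines join the pair for each gene: 22 filled and 11 open points lie above 0.

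Not4WT replicate 2 was the lowest sample for 18 of the 37 genes, where it was the lowest for 27.8% of tested genes, and Not4RRM replicate 3 for 10, where it was the lowest for 17.6%. The mean log2 value of the genes under 400 bp minus that of the genes of at least 900 bp was -2.72, -3.89 and -2.38 in Not4WT and -2.50, -2.20 and -2.04 in Not4RRM samples. Not4WT replicate 2 was the lowest by this measure, and Not4WT replicate 3 lay within the Not4RRM range. Without Not4WT replicate 2 the median of the genes under 400 bp was 0.07 and 11 of 18 were above 0, while that of the genes of at least 900 bp was -0.23. The rho over the 37 genes was then -0.37, and it was -0.58 without Not4RRM replicate 1. Among genes of 400 bp to under 900 bp, *ATP5*, *ATP7*, *ATP16*, *COX4*, *COX5A* and *QCR6* were highest in Not4RRM replicate 1, which was the highest sample for 9 of the 37 genes and for 30.7% of tested genes. What sets the dependence on length was not tested.

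**Figure D4:**
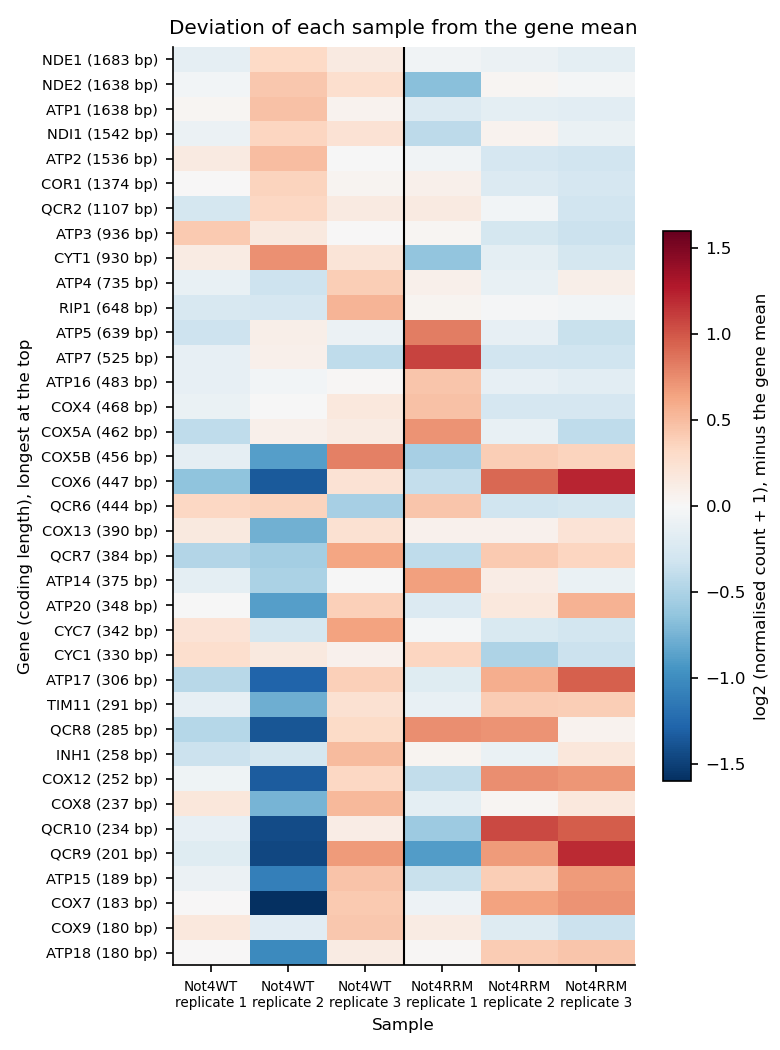
Each cell shows a sample's log2(normalised read count + 1) minus the gene's mean over the 6 samples (colour scale), with the 37 genes ordered from the longest coding sequence at the top and the 6 samples as columns, Not4WT left of the line. Not4WT replicate 2 is low for most of the short genes at the bottom and high for the long genes at the top, while Not4RRM replicate 1 is high for ATP5 and ATP7.

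Genes that act with the chain were read from lists. No gene of any of these lists passed the adjusted threshold (0%). In complex II, which passes electrons from succinate to ubiquinone, 4 of 8 genes were above 0 and 4 below. Their median was 0.01, and it was -0.12 with equal totals and -0.19 without Not4RRM replicate 1. *SDH2* and *SDH4*, its iron-sulfur and membrane anchor subunits, were lower in every Not4RRM sample (log2 fold changes -0.43 and -0.35). These were 2 of the 8 genes, where 12.2% of tested genes were lower in this way. Among 13 regulators of electron transport genes, 4 were above and 9 below (median -0.22), but without Not4RRM replicate 1 the median was 0.04 with 8 above. The lowest p-values there belonged to *HEM1*, the first enzyme of heme synthesis (-0.70, SE 0.18, limma adjusted p = 0.161), and *TUP1*, a general corepressor (-0.99, SE 0.37, limma adjusted p = 0.273). Without Not4RRM replicate 1, the lowest sample for *TUP1*, the log2 fold change was -0.67 for *HEM1* and -0.54 for *TUP1*. The genes of the Hap factor had both signs. *HAP2* and *HAP5* were at -0.39 and -0.32, and *HAP3* and *HAP4*, the glucose-controlled activating subunit, at 0.37 and 0.10. All had adjusted p of at least 0.277 in limma. The groups of *HAP3* and *HAP4* overlapped, while *HAP2*, *HAP5*, *HEM1* and *TUP1* were lower in every Not4RRM sample. The latter were 4 of the 13 regulators, where 12.2% of tested genes were lower in this way. In 0 of the 13 was every Not4RRM sample higher. The 4 Hap genes lie outside the rule by which genes were named and were picked after their values were seen.

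Of the assembly factors, 9 of 14 for complex III (median 0.17), 22 of 34 for complex IV (median 0.07, and -0.051 with equal totals) and 12 of 18 for the ATP synthase (median 0.13) were above 0. At equal totals the counts were 7, 15 and 10, and the medians for complex III and the ATP synthase 0.044 and 0.013. With the length trend removed the 3 medians were -0.043, -0.14 and -0.009, and without Not4WT replicate 2 they were 0.016, -0.009 and 0.039. Without Not4RRM replicate 1 the median for complex III was 0.021. *COX23*, a copper-related assembly factor on chromosome VIII, had a log2 fold change of 0.76 (limma adjusted p = 0.143). Of the 8 mitochondrially encoded genes in the list, *VAR1* of the ribosome among them, 6 passed the filter on low values and all 6 were above 0 (median 0.35), against 4 of 6 (median 0.084) without Not4WT replicate 2. None exceeded 399 normalised counts in a sample, in libraries made from poly(A) RNA, and *ATP8* and *OLI1* stayed under the filter with at most 7.69. Coenzyme Q synthesis genes had 5 of 11 above 0 (median -0.07, and -0.21 without Not4RRM replicate 1). The inner membrane carriers, listed with the outer membrane porins *POR1* and *POR2*, had 6 of 15 above 0 (median -0.15, and -0.37 without Not4RRM replicate 1). *PET9*, the major ADP/ATP carrier, was lower in every Not4RRM sample (-0.65, SE 0.22, limma adjusted p = 0.239), as was *POR1* (-0.34). These were 2 of the 15 genes, where 12.2% of tested genes were lower in this way. *AAC3* (0.27) and *OAC1*, the oxaloacetate carrier (0.58), were higher in every Not4RRM sample, 2 of the 15, where 12.3% of tested genes were. *OAC1* was at 1246 in Not4RRM replicate 1, at 472 and 463 in Not4RRM replicates 2 and 3 and at 423 to 437 in Not4WT samples. Without Not4RRM replicate 1 its log2 fold change was 0.114. The TCA cycle had 3 of 14 above 0 (median -0.31), and the mitochondrial ribosomal proteins, which translate the subunits encoded in the organelle, 47 of 56 (median 0.35). The median coding length was 1416 bp in the former list and 657 bp in the latter, and with the length trend removed their medians were -0.32 and 0.09. The median of the mitochondrial ribosomal proteins was 0.17 without Not4RRM replicate 1 and 0.20 without Not4WT replicate 2, and that of the TCA cycle -0.40 and -0.22. In the TCA cycle 5 of the 14 genes were lower in every Not4RRM sample and 1 was higher, where 12.2% and 12.3% of tested genes were. For the mitochondrial ribosomal proteins these counts were 0 and 7 of the 56.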

How the data were processed

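Ion Torrent Proton reads were trimmed by the authors at low quality, aligned to the S288C transcriptome with STAR (the submitters' processing notes name it and build R64, and its version is not given in the sources used here) and counted per transcript. Each sample was then brought to the lowest coverage. What the authors deposited are thus scaled counts in whole numbers, handled here as a score and not as raw counts. Depth ahead of this scaling is unknown, counting error cannot be given, and the spread between cultures is the only error. The methods and the labels describe different library kits, and which was used could not be settled.

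The table held 5914 rows, of which 1 had no name and was left out, and 5907 gene identifiers matched RefSeq R64 (6 did not). Genes that reached 10 in 3 samples and 15 in total entered limma 3.58.1 in R 4.3.3 on log2(TMM-scaled value + 1), with group as the single term, a prior variance that follows the mean and Benjamini-Hochberg adjustment over 5805 genes. TMM trimmed 30% of ratios and 5% of levels. A call needed 1.5-fold and an adjusted p under 0.05. Alternatives covered scaling, pseudocount, filter, prior, weights, replicate block, length, GC, chromosome VIII and left-out samples. Permutation tests were exact and two-sided. The fit was tested on simulated data drawn with the same spread for every sample. That spread was not taken from these libraries, so the test cannot show how many true differences the fit would miss here.

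Values by sample were given by rule for genes with non-overlapping groups, the isoform pairs, genes on chromosome VIII, and the 2 highest and 2 lowest per kilobase, and *QCR8*, *ATP3*, *ATP7*, *ATP16*, *NDI1*, *AAC3*, *OAC1*, *POR1* and the Hap genes, outside that rule, were named with their values known. The members and lists were chosen with earlier results of these data known.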

Additional observations from a re-analysis of the deposited data

How the results depend on the processing

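Without a depth per sample, limits rest on 3 cultures a group. The number of genes called was 0 in the fit as reported, and it was 1061 with sample quality weights, 6 with the length trend removed (0 when a replicate block was added), 5 with a GC trend removed, 355 by the steps of the study's methods, 511 without Not4WT replicate 2 and Not4RRM replicate 1, and 0 to 358 when single samples were left out. Of the 37 genes, the counts were 7 with weights (*QCR8*, *QCR9*, *QCR10*, *CYC1*, *COX6*, *COX12* and *ATP17*; 18.9%, where 18.3% of tested genes were called), 3 without both samples and 0 to 1 without single samples. Their median went to -0.18 with the length trend removed, alone or with a replicate block, to -0.093 without both samples, and to between -0.038 and 0.22 without single samples. The log2 fold change of *NOT4* was 1.90 with weights, 1.94 with length and 1.83 with GC removed, 2.05 without both samples and 1.69 to 1.97 without single samples.

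Some log2 fold changes crossed 0, and the cause was not tested. *COX8* was at -0.001 with median-of-ratios scaling. With equal totals, which moved the median of all genes from 0.05 to -0.075, *COX8* was at -0.095, *ATP4* at -0.084, *ATP16* at -0.024 and *INH1* at -0.043. Weights gave 0.074 for *RIP1*, -0.016 for *COX8*, -0.126 for *ATP7* and -0.045 for *ATP16*. Removing the length trend, with or without the replicate block, gave *QCR7* -0.174, *COX5A* -0.257, *COX5B* -0.242, *COX8* -0.382, *COX13* -0.175, *ATP4* -0.184, *ATP5* -0.076, *ATP7* -0.046, *ATP16* -0.275, *ATP20* -0.097 and *INH1* -0.344. A GC trend removed gave -0.049 for *COX8* and -0.013 for *ATP4*. Without both samples *COX5A* was at -0.125, *COX8* at -0.253, *COX13* at -0.055, *ATP4* at -0.148, *ATP5* at -0.032, *ATP7* at -0.037, *ATP16* at -0.093 and *INH1* at -0.043. Leaving out single samples gave the ranges -0.325 to 0.001 for *QCR2*, -0.427 to 0.046 for *QCR6*, -0.167 to 0.227 for *RIP1*, -0.289 to 0.083 for *COX4*, -0.198 to 0.362 for *COX5A*, -0.257 to 0.553 for *COX5B*, -0.338 to 0.262 for *COX8*, -0.081 to 0.395 for *COX13*, -0.119 to 0.215 for *ATP4*, -0.134 to 0.447 for *ATP5*, -0.157 to 0.545 for *ATP7*, -0.098 to 0.209 for *ATP16*, -0.021 to 0.579 for *ATP20* and -0.091 to 0.319 for *INH1*.

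Whether same-numbered samples of the 2 groups were handled together is not given in the sources used here. Deviations from the group means correlated at 0.07, -0.15 and 0.38 between same-numbered samples. Between differently numbered samples they correlated at -0.37 to 0.30, so these values cannot settle a pairing. A replicate block left 0 genes called (902 at an unadjusted p under 0.05 in limma) and 0 of the 37. Median-of-ratios or equal-total scaling, a pseudocount of 0.5 or 10, no filter, a mean of at least 100, a constant prior variance, centring of chromosome VIII and no fold threshold also left 0 genes called in limma.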
